A study of Homo sapiens with 24 samples.

Results

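The 10 genes described here control the G1 phase of the cell cycle. They are the D cyclins CCND1, CCND2 and CCND3, the kinases CDK4 and CDK6, and the CDK inhibitors CDKN1B, CDKN1C, CDKN2A, CDKN2C and CDKN2D. They were found among the 58676 rows of the gene count table by matching each Ensembl identifier to its gene symbol, and all 10 symbols had 1 row. The genes were listed for their role and not for their measured change, though earlier results of these data were known. Genes kept in a list of p53 targets, such as CDKN1A, were not among them. RNA was sequenced from HSJD-DIPG-007, an established patient-derived cell line of H3K27-altered diffuse midline glioma (DMG), grown as spheroids. All 24 libraries came from this line, whose genotype is given as H3F3A K27M, ACVR1 R206H and PIK3CA MIS, so vehicle and treated cells shared these alleles. Cells were treated from the day after seeding with DMSO vehicle or with the GI40, a partly growth-inhibitory concentration, of LLY-283, an inhibitor of the arginine methyltransferase PRMT5, and the medium was replaced with a further dose after day 5. For vehicle and LLY-283 alike, days 0 and 5 were covered by 3 libraries, day 7 by 2, and days 1, 2, 3 and 10 by 1 library apiece. The study describes repeats of the same day as technical, so every p-value below measures the spread between these libraries and not between independent cultures.

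D cyclins bind CDK4 or CDK6 in response to mitogens, and the complexes phosphorylate the retinoblastoma protein, which releases E2F factors that turn on genes for DNA replication. The INK4 inhibitors, encoded by CDKN2A, CDKN2C and CDKN2D, bind CDK4 and CDK6 and keep them from their cyclins. The Cip/Kip inhibitors, here CDKN1B (p27) and CDKN1C (p57), act more broadly and block cyclin E and CDK2 as well. Diffuse gliomas often carry gains of D cyclin or CDK4/6 genes or losses of CDKN2A, which is why this step is studied in these tumours.

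Promoter windows of 300 bases ran from 250 bases before to 50 bases after an annotated start of the gene. They were available from RefSeq on GRCh38.p14 for 7 of the 10 genes, in 13 windows. CCND1, CCND2 and CDKN1C had no window and were not searched. A gene could have several such starts, which need not lie at the edge of the gene span given below. The letters CACGTG (E-box) were found in 4 of these 13 windows and in 7.26% of 35116 human windows, and GTAAACA (a FOXO motif, searched on both strands) in 1 of 13 and in 3.42%. CACGTG reads alike on both strands, so each match counts once. Besides windows of CDK4 and CDK6, those with CACGTG belonged to CDKN2C, which was not called at day 5. CDK6 and CCND3 also had windows without any of the motifs searched. The CDK4 window held CACGTG at 3 places, from base 35, base 55 and base 150 of the window, and 33 of the 35116 windows (0.094%) held it at 3 or more. It is printed here beside a window of its partner kinase CDK6 with 1 match, and a CCND3 window with the GTAAACA match, because CDK4 and CCND3 fell at day 5 while CDK6 was not called. All 3 lie on the minus strand, at chr12:57752261-57752560 for CDK4, chr7:92836524-92836823 for CDK6 and chr6:42048639-42048938 for CCND3, and capitals mark the matched letters.
CDK4: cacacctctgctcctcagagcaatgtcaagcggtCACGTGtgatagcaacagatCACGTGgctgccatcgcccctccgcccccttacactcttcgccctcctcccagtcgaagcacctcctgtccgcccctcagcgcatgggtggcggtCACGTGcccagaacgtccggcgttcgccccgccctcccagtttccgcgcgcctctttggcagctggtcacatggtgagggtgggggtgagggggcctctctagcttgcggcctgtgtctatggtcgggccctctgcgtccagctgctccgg
CDK6: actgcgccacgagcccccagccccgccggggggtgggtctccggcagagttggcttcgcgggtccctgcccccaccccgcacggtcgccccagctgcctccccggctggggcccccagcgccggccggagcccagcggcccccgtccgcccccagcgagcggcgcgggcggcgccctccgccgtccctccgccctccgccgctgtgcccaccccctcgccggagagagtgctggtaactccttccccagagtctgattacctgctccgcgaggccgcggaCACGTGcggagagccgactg
CCND3: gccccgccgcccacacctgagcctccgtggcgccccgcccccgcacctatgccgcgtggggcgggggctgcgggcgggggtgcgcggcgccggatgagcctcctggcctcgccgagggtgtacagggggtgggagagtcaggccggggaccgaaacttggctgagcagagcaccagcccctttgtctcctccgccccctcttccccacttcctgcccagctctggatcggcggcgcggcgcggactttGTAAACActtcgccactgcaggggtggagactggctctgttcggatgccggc
Of the other motifs searched on both strands, none was in the 13 windows: the E2F motifs TTTCCCGC (1.63% of all windows) and TTTGGCGC (0.65%), the CRE TGACGTCA (1.85%), the AP-1 site TGACTCA (4.95%) and the CHR TTTGAA (15.16%). These are matches of letters and say nothing of which factor is bound.

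Library totals lay between 13835205 and 23190369 counts. Of 10 genes listed for glioma and oligodendrocyte precursor cells, 9 were above 1 CPM (TMM-normalised counts scaled to a common library size) in all 24 libraries, while SOX10 did not pass 0.603 CPM. TYROBP, a microglial marker, was at 0 throughout, and the 8 microglial and leukocyte markers summed to at most 1.92 CPM. The 15 fibroblast markers, 9 of which were above 1 CPM in all 24 libraries, summed to between 338 and 543 CPM. The highest sum was in LLY-283 day 10, where POSTN reached 146 CPM and LUM 42.6 CPM, and the next was 526 CPM in vehicle day 5 repeat 3. COL1A1, COL1A2, COL3A1 and FN1 were highest in the latter, with FN1 at 60.5 CPM there and a median of 3.09 CPM. Of 6 endothelial markers, PECAM1 was highest in vehicle day 10, at 25.0 CPM with a median of 6.44 CPM. The other 5 stayed below 1 CPM in all 24 libraries. At day 7, both libraries labelled repeat 2 stood apart from repeat 1. On a scale set by the genes called at day 5, with the vehicle day 5 mean at 0% and the LLY-283 day 5 mean at 100%, the vehicle libraries lay at -3.69% (repeat 1) and 47.004% (repeat 2), and the LLY-283 libraries at 72.9% (repeat 1) and -8.56% (repeat 2). Day 7 values are therefore given by label, and the time course of days 0 to 7 also with repeat 1 alone at day 7. CCND1, CDK4 and CCND3 are among the genes that set this scale. On the same scale, the vehicle library of day 10 lay at 61.0% and the LLY-283 library at 96.8%. The libraries of day 0, at the start of treatment, lay between 17.3% and 32.8%. The vehicle libraries of days 1 to 3 lay between 3.68% and 9.60%. Vehicle libraries of different days thus also differed on this scale. The label numbering sets days 0 to 3 apart from days 5 to 10, so time in culture and that split cannot be told apart.

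CCND2 was the most abundant of the genes per length in these cells. In the vehicle libraries of day 0, it had 182 ± 1.82 CPM per kilobase of exon (SD, n = 3), followed by CCND1 with 81.5 ± 2.12 and CDK4 with 65.4 ± 4.39. CDKN1C, CDKN2C and CDK6 came next, with 19.3 ± 0.898, 15.4 ± 0.569 and 13.1 ± 0.199 CPM per kilobase. CCND3 (8.27 ± 0.435), CDKN1B (7.09 ± 0.459) and CDKN2D (3.00 ± 0.319) were lower. The lowest was CDKN2A with 0.304 ± 0.0324, which rests on 13 to 48 counts per library. No neighbours in this order overlapped within 1 SD. The order depends on the length used: with the longest annotated transcript instead of all exons, CDK4 (109) came before CCND1 (91.6), CCND3 (19.9) rose to the fifth place and CDKN1B (15.1) passed CDK6 (13.8).

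Across all 24 libraries, the levels of most of these genes moved within narrow limits. CCND2 lay between 1258 and 1513 CPM, so that its highest library was 1.20 times its lowest. For CDK4, CDKN2C, CCND3 and CDKN1B this ratio was 1.42, 1.42, 1.49 and 1.499, and for CCND1 and CDK6 it was 1.62 and 1.63. CDKN1C had a ratio of 2.51, from 36.0 to 90.2 CPM. CDKN2D and CDKN2A, which had the fewest counts of these genes, had ratios of 2.04 and 2.63. The plot of levels by day shows these ranges, with each library as a point.

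**Figure D1:**
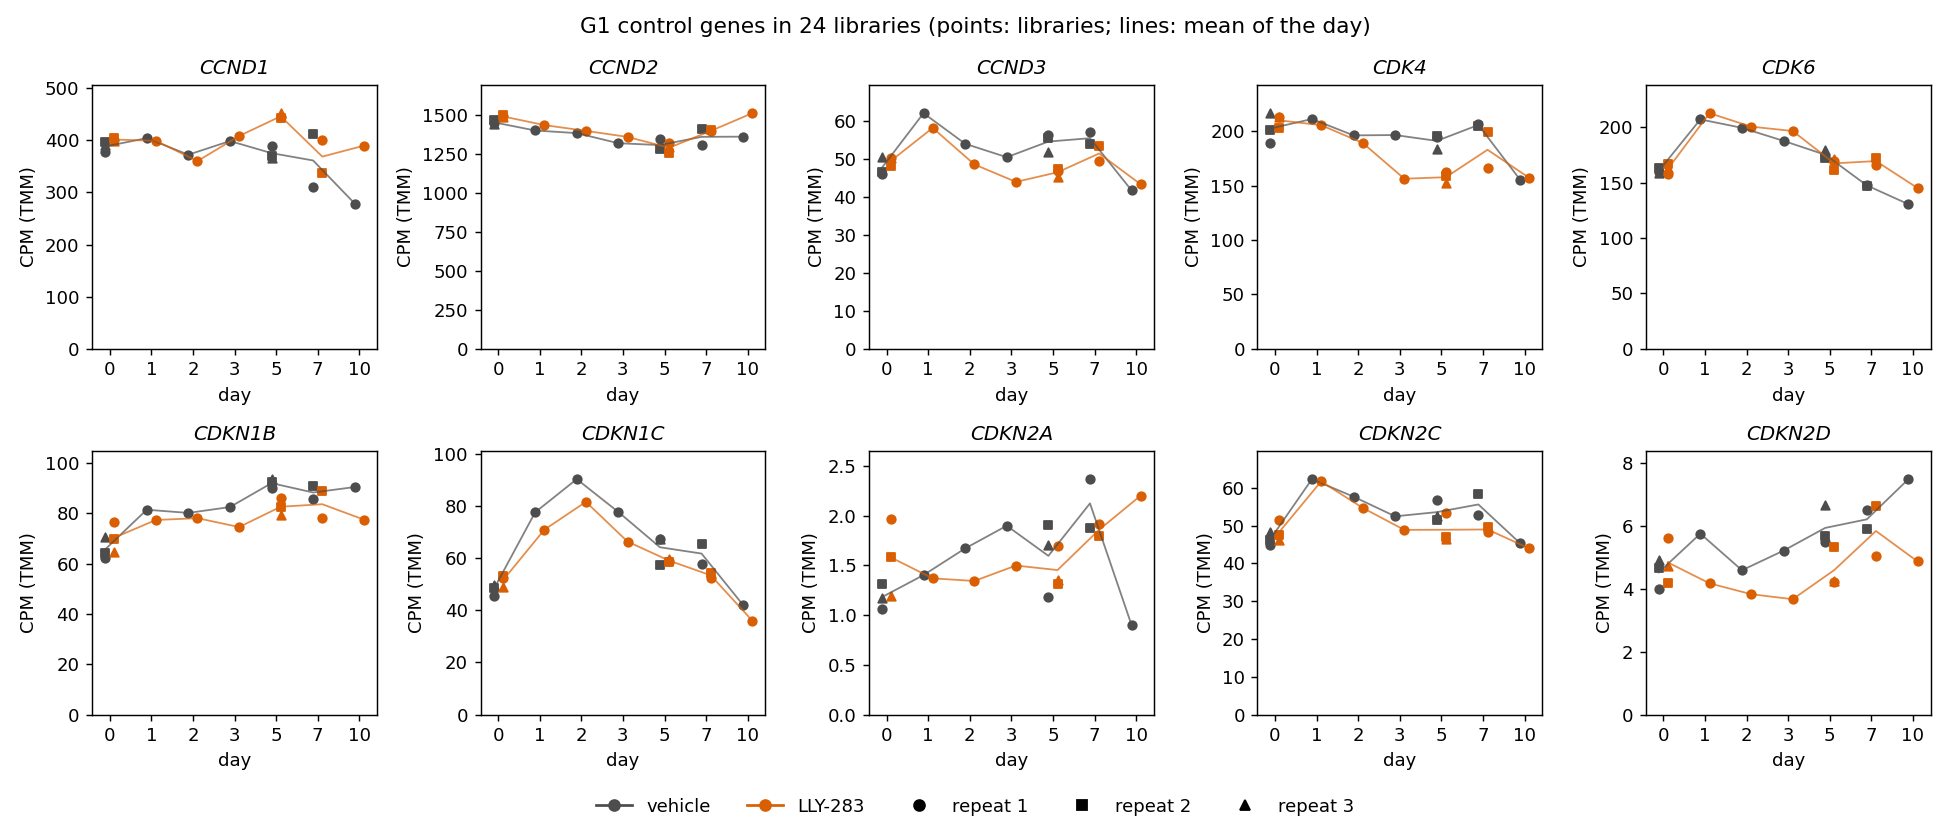
Level of each of the 10 genes in CPM (TMM normalised, linear axis from 0) against day, in vehicle (grey) and LLY-283 (orange) libraries, with symbols for the repeat number and lines through the mean of each day. CCND1 is higher and CDK4 and CCND3 are lower in the LLY-283 libraries of day 5, and CDKN1C is highest at day 2 in both treatment groups.

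At day 5, 3 of the 10 genes were called between LLY-283 and vehicle (edgeR quasi-likelihood test, Benjamini-Hochberg adjusted p under 0.01 over 16491 genes), against 26.1% of all genes tested. CCND1 was higher (12% of all genes were called higher), and CDK4 and CCND3 were lower (14.1% were called lower). The share of members called, 30%, is close to that of all genes. The median log2 fold change of the 10 genes was -0.11, and that of all genes was 0.02. For 6 of the 10, vehicle and LLY-283 libraries did not overlap, as was the case for 46.3% of all genes. In bulk RNA, a smaller share of cells with a transcript and less of it per cell cannot be told apart.

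CCND1 encodes cyclin D1, the D cyclin most directly tied to growth factor signals (ENSG00000110092, chr11:69641156-69654474, plus strand). At day 5 it had 389, 371 and 367 CPM in the vehicle libraries and 445, 442 and 452 CPM in the LLY-283 libraries. Every treated library was above every vehicle library, and the gap between the groups was larger than the range within either. The log2 fold change was 0.27 (SE 0.035, 1.21-fold, adjusted p = 5.11e-07, edgeR). At day 0 the levels were 377, 396 and 392 CPM in vehicle and 401, 405 and 399 CPM in LLY-283. The treated libraries of day 0 were also all higher, by a much smaller margin that was not called (log2 fold change 0.04, adjusted p = 0.909). The groups of day 0 did not overlap, in either direction, for 11.9% of all genes. The difference between the treatment effects of days 5 and 0 was 0.24 on the log2 scale (SE 0.046, adjusted p = 2.6e-04, edgeR interaction test), where 14.9% of 18369 genes and 3 members were called, CCND1 above 0 (6.78% of all genes) and CDK4 and CCND3 below 0 (8.15%). When all 22 libraries of days 0 to 7 shared a fit, the day 5 difference was 0.25 and not called (adjusted p = 0.0279, edgeR). That fit held both repeat 2 libraries of day 7 and was not run with repeat 1 alone. CCND1 shares 10.4% of its exon bases with LTO1 on the other strand, which had a log2 fold change of -0.06 at day 5 (adjusted p = 0.654).

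CCND2 encodes cyclin D2, which is prominent in neural progenitors (ENSG00000118971, chr12:4269771-4305353, plus strand). Its vehicle libraries of day 5 had 1345, 1283 and 1296 CPM and its LLY-283 libraries 1321, 1258 and 1293 CPM. The ranges overlapped. The log2 fold change was 0.01, with a 95% interval from -0.07 to 0.08 (adjusted p = 0.917, edgeR). Its sign was not stable: it changed with DESeq2, and fits that left out 1 library ran from -0.02 to 0.02. At day 0 the levels were 1450, 1471 and 1443 CPM in vehicle and 1493, 1499 and 1486 CPM in LLY-283. Those groups did not overlap, and the difference was not called (0.02, adjusted p = 0.937, edgeR). The effects of days 5 and 0 differed by -0.02 on the log2 scale, with an interval from -0.11 to 0.08. An annotated gene without a symbol, ENSG00000285901, shares 12.5% of its exon bases on the same strand, so reads there could be split between them.

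CCND3 encodes cyclin D3, the least abundant of the D cyclins here per length (ENSG00000112576, chr6:41934934-42050357, minus strand). It had 56.3, 55.6 and 51.8 CPM in the vehicle libraries of day 5 and 46.8, 47.2 and 45.3 CPM in the LLY-283 libraries. All 3 treated libraries were below all 3 vehicle libraries. The log2 fold change was -0.21 (SE 0.051, adjusted p = 0.00168), on 602 to 1414 counts per library. This call sits near the threshold: it was lost without vehicle day 5 repeat 1 (adjusted p = 0.0107) or LLY-283 day 5 repeat 3 (adjusted p = 0.0103). At day 0 the levels were 45.95, 46.5 and 50.5 CPM in vehicle and 50.2, 48.01 and 50.3 CPM in LLY-283, and the ranges overlapped. The effects of days 5 and 0 differed by -0.25 (SE 0.068, adjusted p = 0.0072), a call that was lost with DESeq2 (adjusted p = 0.0124), library size alone (0.0172), no filter (0.0116) and the replicate block (0.013). Among the libraries left out one at a time, it was also lost without repeats 1 and 2 of vehicle at both days, repeats 1 and 3 of LLY-283 at day 0 and repeats 2 and 3 of LLY-283 at day 5 (adjusted p from 0.0109 to 0.0267).

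CDK4 encodes the kinase partner of the D cyclins that was more abundant here per length (ENSG00000135446, chr12:57747727-57756013, minus strand). At day 5 it had 194, 195 and 184 CPM in vehicle and 162, 159 and 152 CPM in LLY-283. The treated libraries were all lower, and the highest of them was below the lowest vehicle library. The log2 fold change was -0.25 (SE 0.037, 0.839-fold, adjusted p = 3.99e-06). At day 0 it had 189, 201 and 217 CPM in vehicle and 213, 203 and 213 CPM in LLY-283, which overlapped. The effects of days 5 and 0 differed by -0.29 (SE 0.056, adjusted p = 3.26e-04). TSPAN31, on the other strand, shares 44.2% of the exon bases of CDK4. It had a log2 fold change of 0.14 at day 5 (adjusted p = 0.151), and the strand setting of the counting is not given in the sources used here.

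CDK6 encodes the second D cyclin kinase (ENSG00000105810, chr7:92604921-92836573, minus strand). In vehicle at day 5 it had 174, 172 and 180 CPM, and in LLY-283 it had 170, 162 and 171 CPM. The treated libraries lay just below the vehicle libraries, and the difference was not called, with a log2 fold change of -0.04, an interval from -0.12 to 0.04 and an adjusted p of 0.437. The ratio of CDK4 to CDK6 per length was 4.31 ± 0.239 in vehicle and 3.73 ± 0.194 in LLY-283 (SD, n = 3 each). Its libraries ran from 4.04 to 4.48 and from 3.51 to 3.89.

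None of the 5 CDK inhibitors among the members was called at day 5, and all 5 had a log2 fold change below 0. How many of all genes were below 0 was not counted. CDKN1B (ENSG00000111276, chr12:12685498-12722369, plus strand) had 90.0, 92.3 and 93.5 CPM in vehicle and 86.1, 82.35 and 79.3 CPM in LLY-283. Its groups did not overlap, and at -0.13 (SE 0.042) its adjusted p of 0.0144 was just past the threshold. Without LLY-283 day 5 repeat 1, it was called (-0.16, adjusted p = 0.0039). CDKN1C (ENSG00000129757, chr11:2883213-2885775, minus strand), an imprinted gene, had 67.4, 57.5 and 67.4 CPM in vehicle and 59.0, 58.3 and 59.7 CPM in LLY-283. Its vehicle repeat 2 lay below all treated libraries, so the groups overlapped, and the log2 fold change was -0.09 (adjusted p = 0.186). Without that library it was -0.18 and still not called (adjusted p = 0.011).

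Of the INK4 genes, CDKN2C (ENSG00000123080, chr1:50960745-50974634, plus strand) had 56.7, 51.4 and 52.6 CPM in vehicle and 53.4, 46.9 and 46.4 CPM in LLY-283 at day 5. The groups overlapped, with a log2 fold change of -0.11 (adjusted p = 0.12). Without LLY-283 day 5 repeat 1 it was -0.18 (adjusted p = 0.0121). CDKN2D (ENSG00000129355, chr19:10566460-10569059, minus strand) had 5.47, 5.66 and 6.65 CPM in vehicle and 4.20, 5.32 and 4.25 CPM in LLY-283. Its groups did not overlap, but it rests on 66 to 131 counts per library, and its log2 fold change of -0.34 (SE 0.15) had an adjusted p of 0.0885. CDKN2A (ENSG00000147889, chr9:21967752-21995301, minus strand) had 1.18, 1.91 and 1.70 CPM in vehicle and 1.69, 1.32 and 1.35 CPM in LLY-283. At this depth the log2 fold change of -0.11 had an interval from -0.69 to 0.47, so a difference of moderate size was not detectable. Without vehicle day 5 repeat 2, CDKN2A had a log2 fold change of 0.03. Its p16 and ARF transcripts share this row and cannot be told apart. On the other strand, CDKN2B-AS1 shares 15.3% of the exon bases of CDKN2A, and ENSG00000290102 shares 20.4% of those of CDKN2C.

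**Figure D2:**
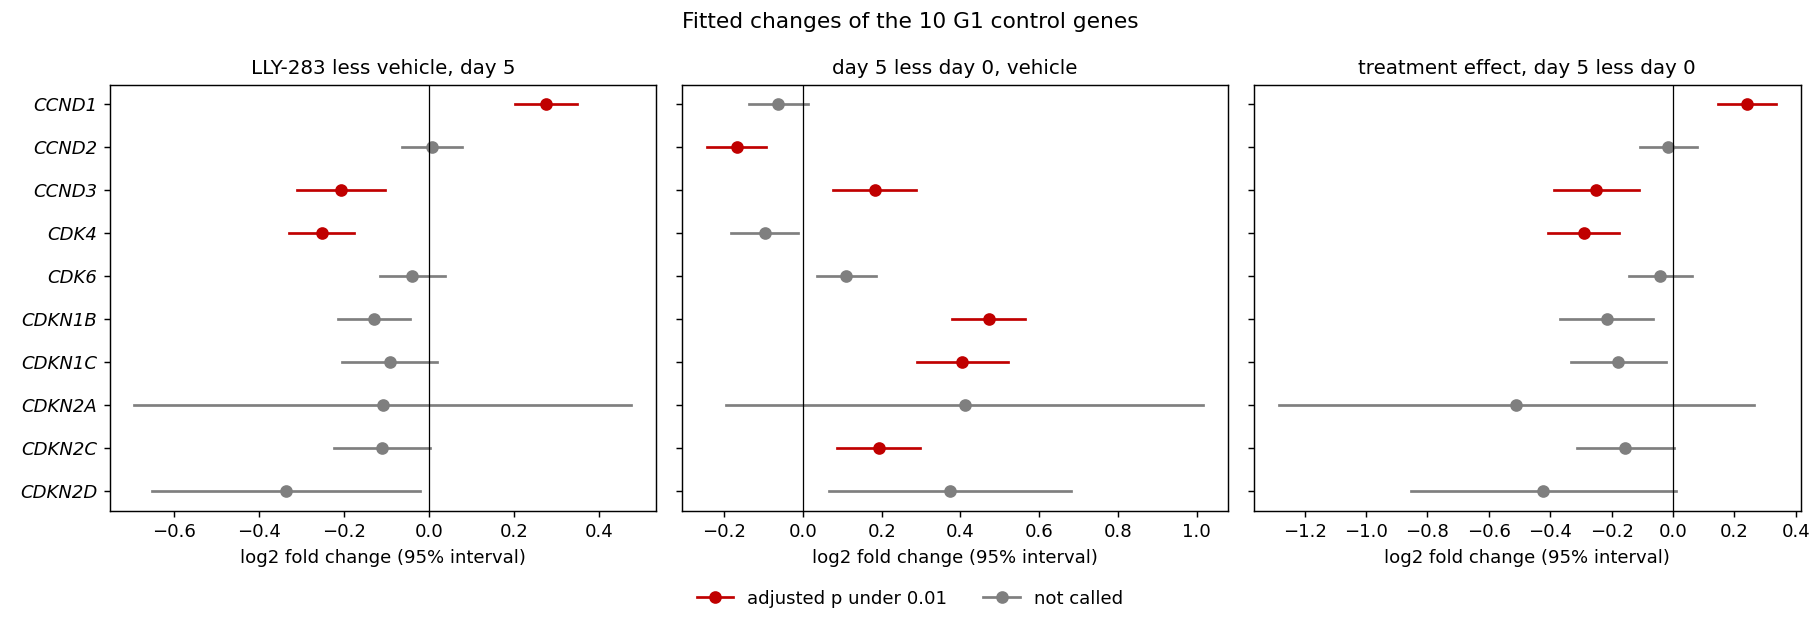
Log2 fold change (points) with 95% interval (bars) of the 10 genes for LLY-283 against vehicle at day 5 (left), vehicle day 5 against day 0 (middle) and the difference of the treatment effect between days 5 and 0 (right); the 3 horizontal axes have different ranges. CCND1 is called above 0 and CDK4 and CCND3 below 0 on the left and on the right, while CDKN1B and CDKN1C have the highest called values in the middle.

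COL1A1, COL1A2, COL3A1 and FN1 were highest in vehicle day 5 repeat 3, so the day 5 results were also read without it. CCND1 was then higher by 0.25 (adjusted p = 3.66e-05), CDK4 had -0.28 (1.23e-05) and CCND3 -0.25 (9.83e-04). All 3 kept their call without that library.

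Before day 5, the libraries of day 0 tested whether the treatment groups differed at the start. None of the 10 genes was called at day 0, and 3 of 17780 genes (0.0169%) were. None of the 10 had an unadjusted p under 0.05 either (5.69% of all genes did), and the log2 fold changes, all above 0, ran from 0.00 for CDK6 to 0.40 for CDKN2A.

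Days 1, 2, 3 and 10 had 1 library of each treatment group, so a day alone has no replicate check. CCND1 had 404 CPM in vehicle and 399 CPM in LLY-283 at day 1, 372.5 and 360 CPM at day 2, and 399 and 408 CPM at day 3. At day 10 it had 279 CPM in vehicle, the lowest of all 24 libraries, and 390 CPM in LLY-283. The treated library was thus close to vehicle through day 3 and higher at day 10. The vehicle library of day 10 is the one that lay at 61.0% of the scale set by the day 5 calls and held the most PECAM1, and the part of this in its levels was not tested.

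CDK4 had 211 and 206 CPM in vehicle and LLY-283 at day 1, and 196 and 189 CPM at day 2. At day 3 it had 196 CPM in vehicle and 156 CPM in LLY-283, a log2 difference of -0.33 between these libraries. At day 10 both were low, with 156 and 157 CPM. CCND3 was lower in the treated library at days 1, 2 and 3, by -0.09, -0.15 and -0.20 on the log2 scale, and had 41.7 and 43.3 CPM in vehicle and LLY-283 at day 10. For CDK4 and CCND3, the difference seen at days 3 and 5 was thus not seen between the libraries of day 10, of which the vehicle library lay at 61.0% of the scale of the day 5 calls.

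CDKN1B, CDKN1C, CDKN2C and CDKN2D were lower in the treated library on all 4 of these days. CDKN2D had 5.745 and 4.17 CPM in vehicle and LLY-283 at day 1, 4.58 and 3.82 CPM at day 2, 5.21 and 3.66 CPM at day 3, and 7.48 and 4.86 CPM at day 10. CDKN1C had 77.5 and 70.8, 90.2 and 81.5, 77.6 and 66.3, and 41.95 and 36.0 CPM on these days. CCND2 and CDK6 were higher in the treated library on all 4 days, by at most 0.15 on the log2 scale. How many of all genes kept the same direction on all 4 days was not counted.

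A fit over these 8 libraries with a term for the day called 0 of the 10 genes, and 3 of 19557 genes (0.0153%). At an unadjusted p under 0.05, 16.3% of all genes and 3 members passed, and these were CDKN2D (log2 fold change -0.46, SE 0.13), CDKN1C (-0.17, SE 0.051) and CDKN1B (-0.12, SE 0.052). Their adjusted p was 0.117, 0.12 and 0.291 (edgeR). DESeq2 also called 0 members, but it gave no adjusted p for CDKN2D and CDKN2A and so could not call them.

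**Figure D3:**
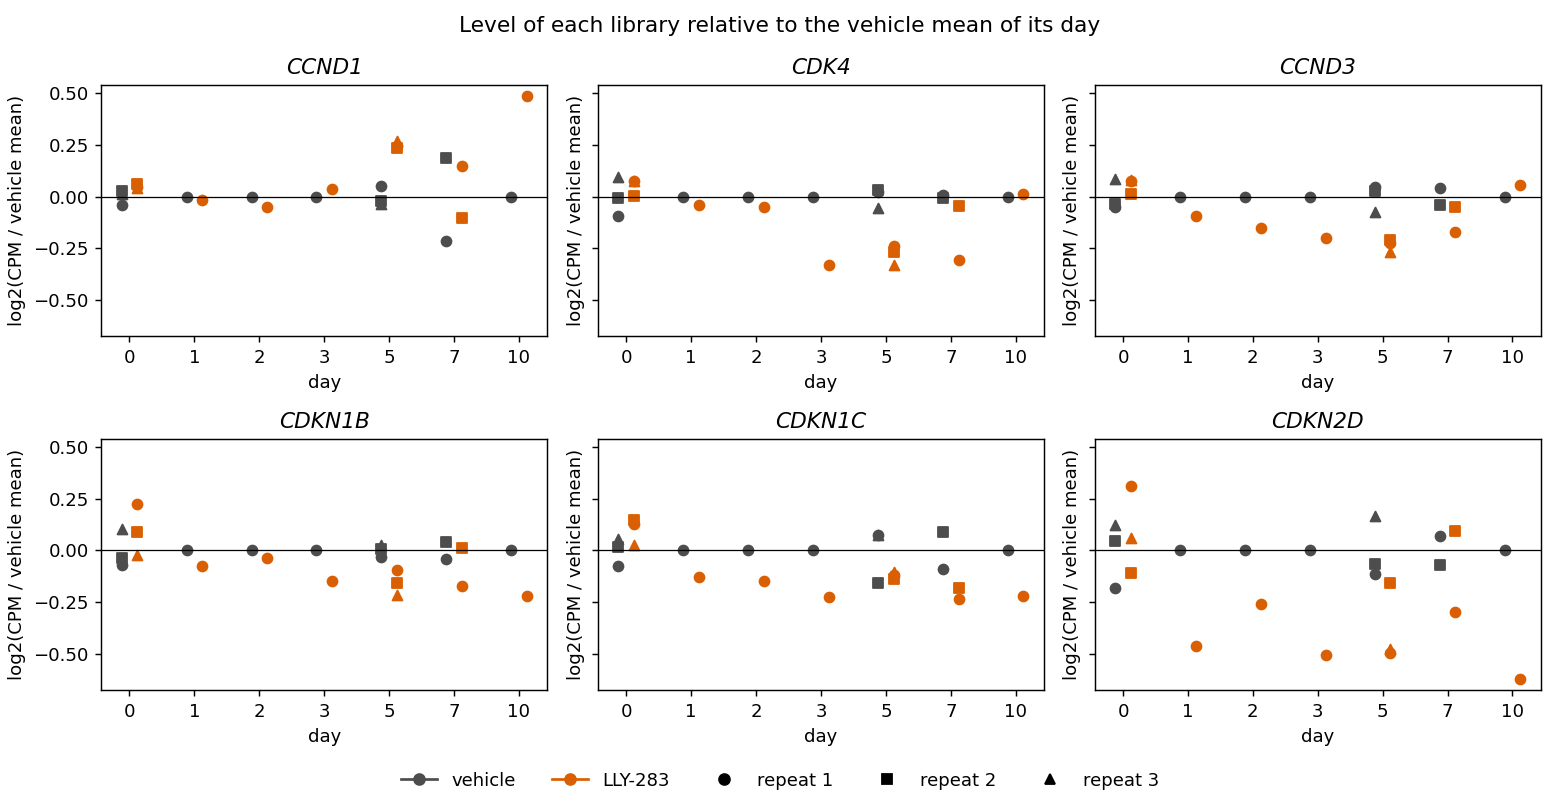
Log2 of each library's CPM over the vehicle mean of its day, against day, for 6 of the genes in vehicle (grey) and LLY-283 (orange) libraries, with symbols for the repeat number; on days with 1 vehicle library its point is 0 by construction. CCND1 of the LLY-283 libraries is above the vehicle mean at days 5 and 10, and CDK4 is below it at days 3 and 5. At day 7 the repeats of CCND1 lie apart in both treatment groups, while those of CDK4 lie apart in LLY-283 only.

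At day 7 none of the 10 genes was called by label, and none of 16826 genes (0%) was with edgeR, while 236 (1.4%) had an unadjusted p under 0.05 and DESeq2 called 3. CCND1 had 311 and 412 CPM in vehicle repeats 1 and 2, and 401 and 337 CPM in LLY-283 repeats 1 and 2. The repeat 1 libraries differed as at day 5, with a log2 difference of 0.37, and the repeat 2 libraries the other way, with -0.29. CDK4 had 207 and 205 CPM in vehicle and 166 and 200 CPM in LLY-283, so that LLY-283 repeat 1 alone was low. CDK6 had 148 and 147 CPM in vehicle and 166 and 173 CPM in LLY-283, higher in both treated libraries (log2 fold change 0.21, adjusted p = 0.9995, edgeR).

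Over the 22 libraries of days 0 to 7, the test of whether the treatment effect changed with the day called 0 members, and 6 of 20756 genes (0.0289%). At an unadjusted p under 0.05 there were 3166 genes (15.3%) and, of the members, CDK4, CDK6 and CCND3. Their adjusted p was 0.181, 0.273 and 0.299 (edgeR). With the repeat 1 libraries alone at day 7, the F value of CCND1 was 9.73 instead of 1.39. That of CDK4 was 9.05 instead of 4.11, and calls over all genes rose as well. Leaving out LLY-283 day 7 repeat 2 alone also raised the F value of CDK4, to 7.92. Repeat 2 was set aside on a scale built from the day 5 calls, which include CCND1 and CDK4. These fits also hold the day 5 libraries, so they are no separate support for either gene.

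Some of the 10 genes also differed between day 5 and day 0. Between these days, time in culture and the split in the label numbering cannot be told apart. In vehicle, 5 of the 10 were called between day 5 and day 0, against 38.9% of 17106 genes (22.2% higher and 16.7% lower), and CDKN1B and CDKN1C had the largest called increases of the 10. CDKN1B rose from 62.4, 64.0 and 70.4 CPM at day 0 to 90.0, 92.3 and 93.5 CPM at day 5 (log2 fold change 0.47, SE 0.046, adjusted p = 1.2e-09, edgeR). CDKN1C rose from 45.5, 48.4 and 49.8 CPM to 67.4, 57.5 and 67.4 CPM (0.40, SE 0.056, adjusted p = 1.66e-06). In both genes every library of day 5 was above every library of day 0, and in 57.1% of all genes these libraries did not overlap. CDKN2C (0.19) and CCND3 (0.18) rose less, and CCND2 fell by 0.17 on the log2 scale. Under DESeq2, CDKN2C and CCND3 were not called (adjusted p = 0.019 and 0.0277), nor with library size alone (0.0246 and 0.0394), where CCND1 (-0.12, adjusted p = 0.00303) and CDK4 (-0.15, adjusted p = 0.00206) were called lower instead. CCND3 also lost its call without vehicle day 0 repeat 1 or 2 or vehicle day 5 repeat 1 or 2 (adjusted p from 0.0136 to 0.0315), CDKN2C without vehicle day 0 repeat 2 (0.0154) or day 5 repeat 1 (0.0266), and CCND2 without vehicle day 5 repeat 2 (0.0141), while CDK4 was called lower without vehicle day 0 repeat 1 (-0.14, adjusted p = 0.0035).

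In the LLY-283 libraries, 5 of the 10 were also called, against 42.4% of 17341 genes (22.9% higher and 19.5% lower). CDK4 fell by 0.40 on the log2 scale (SE 0.034, adjusted p = 5.46e-10), from 213, 203 and 213 CPM to 162, 159 and 152 CPM. CCND1 rose by 0.17, CDKN1B by 0.25 and CDKN1C by 0.22, and CCND2 fell by 0.19. For CCND2 the values over time in both treatment groups were thus close, and the effects of treatment at days 5 and 0 were not shown to differ. CDKN1B had a difference between the day 5 and day 0 effects of -0.22 (SE 0.074, adjusted p = 0.0342) and CDKN1C of -0.18 (SE 0.076, adjusted p = 0.0897), neither of which was called. CDKN1B was called there without vehicle day 0 repeat 3 (adjusted p = 0.0079) or LLY-283 day 0 repeat 3 (0.0058), and CDKN1C without vehicle day 5 repeat 2 (0.00844). These comparisons share libraries with the day 5 treatment comparison.

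Over the whole series, CDKN1C, CDK6, CDKN2C and CCND3 had a peak early in culture. CDKN1C went from 45.5 to 53.0 CPM in the 6 libraries of day 0 to 77.5 and 70.8 CPM at day 1 and 90.2 and 81.5 CPM at day 2, and was at 41.95 and 36.0 CPM at day 10 (vehicle and LLY-283). CDK6 was between 158 and 167 CPM at day 0, at 207 and 213 CPM at day 1, and at 131 and 145 CPM at day 10. The same course was seen in both treatment groups, with 1 library of each on these days.

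Within the D cyclins, CCND1 gained share at day 5. Per length, CCND1 made up 31.3% ± 0.227 of the 3 D cyclins in vehicle and 35.6% ± 0.522 in LLY-283, CCND2 65.0% ± 0.343 and 61.3% ± 0.552, and CCND3 3.76% ± 0.136 and 3.06% ± 0.101 (SD, n = 3 each). Vehicle and LLY-283 libraries overlapped in none of the 3 shares. The shares are parts of the same sum and use the day 5 values tested above, so they are not separate results. CCND2 itself was not called at day 5, with a log2 fold change of 0.01. As a ratio of counts, CCND1 to CCND2 was between 0.283 and 0.289 in vehicle and between 0.337 and 0.351 in LLY-283 at day 5. It was between 0.260 and 0.271 over the 6 libraries of day 0. At day 10 the ratio was lower in both, with 0.205 in vehicle and 0.258 in LLY-283.

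The other genes of the G1/S circuit were read from a list of 32, all of which were tested at day 5. Of these, 4 were called higher, 16 lower and 12 were not called (62.5% called, against 26.1% of all genes), with a median log2 fold change of -0.17. Among the inhibitors, CDKN1A (p21, a p53 target) rose by 0.50 (SE 0.036, adjusted p = 2.41e-11, edgeR) and CDKN2B (p15, an INK4 inhibitor) by 0.55 (SE 0.11, adjusted p = 1.58e-04). Both were higher in LLY-283, while the inhibitors CDKN1B, CDKN1C, CDKN2A, CDKN2C and CDKN2D were not called. FBXW7, which marks cyclin E for degradation, rose by 0.21, and TFDP2, an E2F partner, by 0.38.

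The 4 genes of smallest p among those that fell were SKP2 (-0.44), CDC25A (-0.49), TFDP1 (-0.40) and CKS1B (-0.33). SKP2 and CKS1B act together to mark the CDKN1B protein for degradation, CDC25A is the phosphatase that activates CDK2, and TFDP1 is the main E2F partner. CCNE1 (-0.30), CCNE2 (-0.37) and CDK2 (-0.30), which act after the D cyclin step, were lower as well, as were RB1 (-0.15) and RBL1 (-0.31). E2F1, E2F3, E2F6, E2F7 and E2F8 fell by between 0.19 and 0.34 on the log2 scale. At day 0, 0 of the 32 were called. The difference between the day 5 and day 0 effects was called for 4 above 0 (6.78% of all genes) and 11 below (8.15%).

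**Figure D4:**
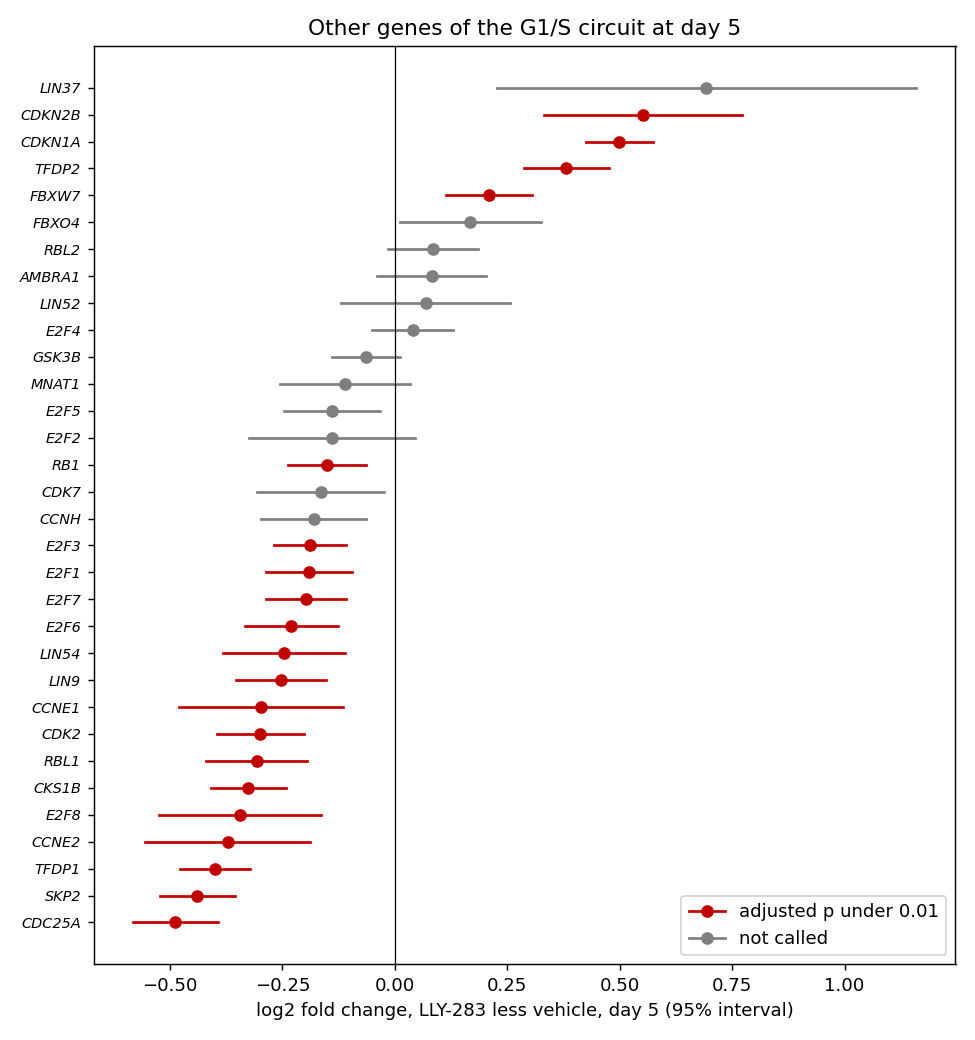
Log2 fold change (points) with 95% interval (bars) at day 5, LLY-283 against vehicle, for the 32 other genes of the G1/S circuit, in order of size. The 4 called genes above 0 are CDKN2B, CDKN1A, TFDP2 and FBXW7, the 16 called genes below 0 run from RB1 (-0.15) to CDC25A (-0.49), and LIN37 (0.69), at the top, was not called.

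Transcripts of cycling cells also differed between the treatment groups at day 5. All 15 genes of a list of replication and mitosis markers were called lower at day 5 (median log2 fold change -0.30), where 14.1% of all genes were called lower and the median of all genes was 0.02. Their summed level was between 3526 and 3629 CPM in vehicle and between 2698 and 2865 CPM in LLY-283. It was between 2600 and 2764 CPM over the 6 libraries of day 0. At day 7 it was 3594 and 3027 CPM in vehicle repeats 1 and 2, and 2868 and 3702 CPM in LLY-283 repeats 1 and 2. At day 10, where CDK4 and CCND3 were close in both, the sums were 2921 CPM in vehicle and 2744 CPM in LLY-283. Of 5 neuronal markers tested at day 5, SYT1 and MAP2 were called higher and TUBB3 lower (median log2 fold change 0.31), and the 6 listed summed to between 421 and 436 CPM in vehicle and between 499.9 and 512 CPM in LLY-283. Of 13 fibroblast markers tested, LUM, POSTN and THY1 were called higher and none lower (median -0.02). The part of cycling cells and of these other markers in the levels of CCND1, CDK4 and CCND3 was not tested.

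The genes whose log2 CPM followed each member most closely over the 24 libraries were found among 20875 genes, as a description of libraries that share days, treatment and depth. CDK4 was followed by CCT6A (Pearson r = 0.96), RPS26 (0.96) and CCT3 (0.96), which are chaperonin subunits and a ribosomal protein. CCND3 was followed by CDC42 (0.93), YWHAQ (0.93) and TCP1 (0.91), the last also a chaperonin subunit. For CDKN1B they were KDELR2 (0.94), CCNI (0.93) and MDFI (0.93), and for CCND1 they were SULF2 (0.87), FGF14 (0.86) and GRIA4 (0.86).

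CCND2 was nearest to CMKLR1 (0.88), EXOC3L2 (0.87) and PMP22 (0.86), and CDK6 to EPB41L2 (0.90), TRIM36 (0.89) and SLC25A29 (0.88). CDKN1C was nearest to RBM14 (0.89), PDCD7 (0.89) and TMSB15A (0.85), CDKN2C to LSM5 (0.91), CANX (0.91) and UGDH (0.89), and CDKN2D to NOB1 (0.88), HOMER3 (0.87) and CDK9 (0.87). CDKN2A, with its few counts, reached 0.71 (HNRNPA1P6), 0.67 (STEAP1B) and 0.67 (ENSG00000280057). No member was among the 3 nearest of another.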

How the data were processed

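RNA of 24 libraries was sequenced from poly(A) RNA with a directional kit. The authors assigned reads to human transcripts (hg38) with kallisto, whose version and strand setting are not given in the sources used here, and deposited estimated counts for each gene, as whole numbers without normalisation. Library totals were 13835205 to 23190369 counts, so counting error is small for all members but CDKN2D and CDKN2A. Of 58676 identifiers, 58207 matched a symbol of GENCODE on GRCh38.

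Differential expression was tested with edgeR 4.0.16 (R 4.3.3), with TMM normalisation, its filter on low counts by group (minimum count 10), robust quasi-likelihood fits and adjustment by Benjamini-Hochberg over all genes tested, with calls at an adjusted p under 0.01. Each comparison was fitted on its own libraries. Levels are CPM with TMM factors over all 24 libraries, so folds of levels can differ slightly from fitted ones. The day 5 scale used log2(CPM + 0.5). Per-length levels used all exon bases of a gene. Tests were checked on simulated data. DESeq2 1.42.0 and other alternatives are in the closing section. The members, lists, motifs and tests were chosen with earlier results of these data known. Text names all 10 members, up to 4 circuit genes of smallest p in each direction and the 3 nearest genes of each member. Other circuit genes were named after their values were seen.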

Additional observations from a re-analysis of the deposited data

Results flagged for a closer look

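For 3 genes the treatment effect differed between day 5 and day 0 by the edgeR interaction test over 12 libraries. On the log2 scale the difference was 0.24 for CCND1 (adjusted p = 2.6e-04), -0.29 for CDK4 (adjusted p = 3.26e-04) and -0.25 for CCND3 (adjusted p = 0.0072). CCND3 was called in only 2 of 6 alternative settings and in 4 of 12 fits that left out 1 library. CCND1 and CDK4 were called in all of these. The treated libraries of day 5 were higher in 3 of 3 for CCND1 and lower in 3 of 3 for CDK4 and CCND3 than all vehicle libraries of that day. At day 5 the groups did not overlap, in either direction, for 46.3% of all genes.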

How the results depend on the processing

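Each result was recomputed with no filter on low counts, library size alone, DESeq2 or its size factors, and an adjusted p under 0.05. A replicate block was used as well, and each library was left out in turn. For day 5, all 22 libraries were also put in a shared fit. For the time course, the repeat 1 libraries alone at day 7 were also used. A lone library was taken to vary like those of the other groups. At day 5, CCND3 kept its direction throughout. It was called in all 7 alternative settings and in 4 of 6 fits that left out 1 library. CDK4 kept its direction and its call at day 5 in all of these fits, and CCND1 in all but 1. The exception was the shared fit, which held the repeat 2 libraries of day 7. There 2042 genes were called instead of 4304, and CCND1 had an adjusted p of 0.0279 (edgeR). No called member changed direction. The cause of each shift was not tested. Of the members at vehicle day 5 against day 0, DESeq2 called 3 instead of 5, and library size alone 5, of which CCND1 and CDK4 took the place of CCND3 and CDKN2C. Over all genes, no filter on low counts gave 56 calls at day 0 instead of 3, 27 at day 7 instead of 0, 564 over days 1, 2, 3 and 10 instead of 3, and 1217 in the time course of days 0 to 7 instead of 6. DESeq2 gave 3 calls at day 7, 43 over days 1, 2, 3 and 10, and 249 in the time course. Its size factors gave 10 in the time course, and library size alone gave 11 there and 7 over days 1, 2, 3 and 10. An adjusted p under 0.05 gave 8 calls at day 0, 94 over days 1, 2, 3 and 10, 4452 for the difference between days 5 and 0 instead of 2742, and 30 in the time course. With the repeat 1 libraries alone at day 7, the time course gave 2002 calls and 2 members. Leaving out each library in turn gave 2 to 4 members and 3193 to 4423 genes at day 5, 0 to 17 genes at day 0, 7 to 32 at day 7, 0 to 7 over days 1, 2, 3 and 10, 3 to 5 members and 5624 to 6114 genes for vehicle day 5 against day 0, 6389 to 7233 genes for LLY-283, 2 to 4 members and 2126 to 3000 genes for the difference between days 5 and 0, and 0 to 1 members and 0 to 894 genes in the time course. The same repeat numbers did not pair the libraries: deviations from the group means of same-numbered libraries correlated between -0.0764 and 0.00592. The replicate block gave 6 calls at day 0, 1 in the time course and 2 members instead of 3 for the difference between days 5 and 0, where CCND3 was not called (adjusted p = 0.013). The time course test of DESeq2 gave no F value per gene to set beside that of edgeR. Depth limits CDKN2A and CDKN2D, and libraries at days 1, 2, 3 and 10 have no replicates.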
